A study of Mus musculus with 4 samples.

Results

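The regions described here were more accessible in naive T helper cells than in both Th2 cells and other effector cells, and were listed in no comparison with regulatory T cells. They are 2692 of 52537 regions (5.12%) at which the study listed a difference between any pair of 4 T helper populations. They were chosen by calls: rows of the 6 deposited lists of differential regions that shared 1 bp or more were chained into merged regions, and a region was kept when it held rows of the naive versus other effector list and of the naive versus Th2 list and of no other. The folds in those 2 lists therefore chose the regions and are given as a description.

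Chromatin accessibility was measured by ATAC-seq, in which a transposase inserts adapters into open DNA. All 4 populations came from mice sensitized and challenged with HDM (house dust mite), a model of allergic asthma, and carry day 15 in their titles. All were gated as CD3+CD4+. Th2 cells were further gated as CD44+ST2+CD30L+, the other effector cells, which the protocol calls non-Th2 memory, as CD44+ST2-CD30L+ and Treg cells as CD25hiCD30L-, all from lung with airways. Naive cells were gated as CD44lo, among other markers, and came from the mLN. The protocol states 3 biological replicates for a population and 1000 cells of each subset. The descriptions of naive and other effector cells carry D10 in place of day 15, and for naive cells the source label gives lung and airways, against the mLN of the protocol. Population and tissue cannot be told apart in any comparison with naive cells.

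The lists hold 1 log2 fold for each region and comparison, so the value of single libraries, a p-value and a replicate error are not used here. No fold below has an error of its own, and the intervals given are exact 95% binomial intervals over regions, which cover counting error alone because regions do not stand for replicates. Read depth is unknown. Fewer cells with an open region and less open DNA in each cell cannot be told apart in such sorted populations.

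Naive T helper cells are resting cells that recirculate through lymph nodes. Their identity is held by transcription factors such as TCF1 (Tcf7), LEF1, BACH2, FOXP1 and SATB1, and by homing receptors such as CCR7, which effector cells downregulate after antigen. Much of the DNA whose openness differs between T cell states lies in enhancers, which can act on a gene from inside it or from a distance.

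Of the regions, 72 (2.67%, 2.10% to 3.36%) overlapped any of the 32851 windows of RefSeq's promoter table (build GRCm38.p6, 250 bases before to 50 after a start), and these 72 met 83 windows of 76 genes. The share over all 52537 merged regions was 17.2%, and it was 4.03% (3.57% to 4.54%) where naive cells were higher than other effector cells only. It was 4.08% (3.08% to 5.28%) where they were higher than other effector and Treg cells. Where they were higher than all 3 populations it was 2.40% (1.67% to 3.33%), so a low share was not particular to this class. The following 4 windows are shown because they carry the regions at list genes and the region with the highest folds of all. Each is written 5′ to 3′ on the gene's strand, with matches to AP-1 (TGACTCA), TCF/LEF (CTTTGAA), RUNX (AACCACA), ETS (CAGGAAG) or forkhead (GTAAACA) motifs, on either strand, in capitals.
Lck, chr4:129558323-129558622, minus strand: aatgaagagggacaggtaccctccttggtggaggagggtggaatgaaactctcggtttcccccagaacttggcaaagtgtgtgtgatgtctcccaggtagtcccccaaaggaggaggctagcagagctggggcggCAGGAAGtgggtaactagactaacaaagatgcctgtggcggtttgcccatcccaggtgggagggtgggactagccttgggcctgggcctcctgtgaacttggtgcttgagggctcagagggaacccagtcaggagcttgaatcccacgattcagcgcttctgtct
Foxp1, chr6:99266466-99266765, minus strand: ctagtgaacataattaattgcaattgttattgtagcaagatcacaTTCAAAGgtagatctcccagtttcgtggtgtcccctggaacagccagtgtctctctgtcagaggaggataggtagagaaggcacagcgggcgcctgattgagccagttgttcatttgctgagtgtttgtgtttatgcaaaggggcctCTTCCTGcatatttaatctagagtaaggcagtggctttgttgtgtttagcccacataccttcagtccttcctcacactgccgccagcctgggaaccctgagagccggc
Prf1, chr10:61297586-61297885, plus strand: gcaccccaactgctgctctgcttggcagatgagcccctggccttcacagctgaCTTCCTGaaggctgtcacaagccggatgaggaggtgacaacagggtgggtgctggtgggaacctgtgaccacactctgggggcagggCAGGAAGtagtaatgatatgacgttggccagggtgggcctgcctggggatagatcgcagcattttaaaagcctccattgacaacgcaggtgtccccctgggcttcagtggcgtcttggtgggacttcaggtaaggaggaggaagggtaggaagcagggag
Rasgrp2, chr19:6399625-6399924, plus strand: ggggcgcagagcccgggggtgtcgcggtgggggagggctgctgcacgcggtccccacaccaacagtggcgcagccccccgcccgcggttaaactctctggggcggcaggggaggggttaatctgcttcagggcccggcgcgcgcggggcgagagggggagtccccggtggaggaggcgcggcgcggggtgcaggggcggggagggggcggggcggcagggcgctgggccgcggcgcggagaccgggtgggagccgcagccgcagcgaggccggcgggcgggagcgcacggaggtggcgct

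The region at Lck, the kinase that starts T cell receptor signalling, covered all 300 bases of its window and had folds of 8.55 over other effector and 8.73 over Th2 cells in the authors' deposited tables. It lay inside the gene (129548344 to 129573641), and this window is that of an internal start. Lck had 4 merged regions, of which 1 was in the class, 2 had Treg and 1 had Th2 above other effector cells. The region at Foxp1 covered 230 of the 300 bases, and its folds were 7.97 and 8.15 in the authors' deposited tables. It lay inside the gene, 256551 bp from the nearest gene end, so this window is that of an internal start. The listed region at the upper end of Foxp1, 597507 bp from its lower end, was not in the class. The window of Prf1, which encodes perforin, was covered whole by a region with folds of 8.69 over other effector but 5.83 over Th2 cells in the authors' deposited tables. Rasgrp2, an exchange factor for small GTPases that controls integrin activation, had the highest folds of all 2692 regions, 9.57 and 9.75 in the authors' deposited tables. Its window holds none of the 5 motifs, the Lck window 1 ETS match, the Foxp1 window 1 TCF/LEF and 1 ETS match and the Prf1 window 2 ETS matches.

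Among the 83 windows, an ETS match was present in 21.7% (13.4% to 32.1%), against 13.3% of all 32851 windows and 12.7% of the 11755 that overlapped any merged region. AP-1 was present in 9.64% (4.25% to 18.1%), against 5.20% of all and 3.62% of those 11755. TCF/LEF was present in 8.43% (3.46% to 16.6%), against 5.14% and 3.38%, and RUNX also in 8.43%, against 5.27% and 4.0%. Forkhead was present in 1.20% (0.0305% to 6.53%), against 3.65% and 2.44%. Windows of alternative starts share bases, and no test was made of these shares. A pair of regions overlapped a miRNA hairpin, Mir196b within the HoxA cluster and Mir7243 near Ephb1.

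Of the 52537 merged regions, 33.7% were listed with naive cells above other effector cells, 9.21% with naive above Th2 cells and 5.76% with naive above Treg cells. All 2692 regions held exactly 1 row of each list at identical coordinates, and at all of them naive cells were the higher population in both. For the naive versus other effector list this direction was fixed beforehand, since all of its 17700 rows have naive cells higher. Of the 4837 regions with naive above Th2 cells, 4835 also had naive above other effector cells. Being listed over other effector cells thus set almost none of them apart. The fold over other effector cells ranged from 3.65 to 9.57 with a median of 5.44, and that over Th2 cells from 3.41 to 9.75 with a median of 4.94, in the authors' deposited tables. The 5 regions with the smallest fold over Th2 cells lay at Usp7, Rdh13, Gzmb, Dipk1a and Fam78a, at 3.41, 3.45, 3.54, 3.56 and 3.57 in the authors' deposited tables. Both lists share the naive libraries, so the folds are set side by side and no relation between them is tested.

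The difference between the 2 folds of a region gives Th2 minus other effector cells, if folds of different lists add up. At 1666 of the 2692 regions (61.9%, 60.0% to 63.7%) this difference was -0.18 or -0.19, and at no region was it lower. No value lay between -0.18 and 0.20. The other 1026 regions (38.1%) ranged from 0.20 to 3.72, with a median of 1.08, and their lowest values formed a separate step of 196 regions from 0.20 to 0.26, followed by a gap up to 0.51. That step lies 0.38 to 0.44 above the lowest value.

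**Figure D1:**
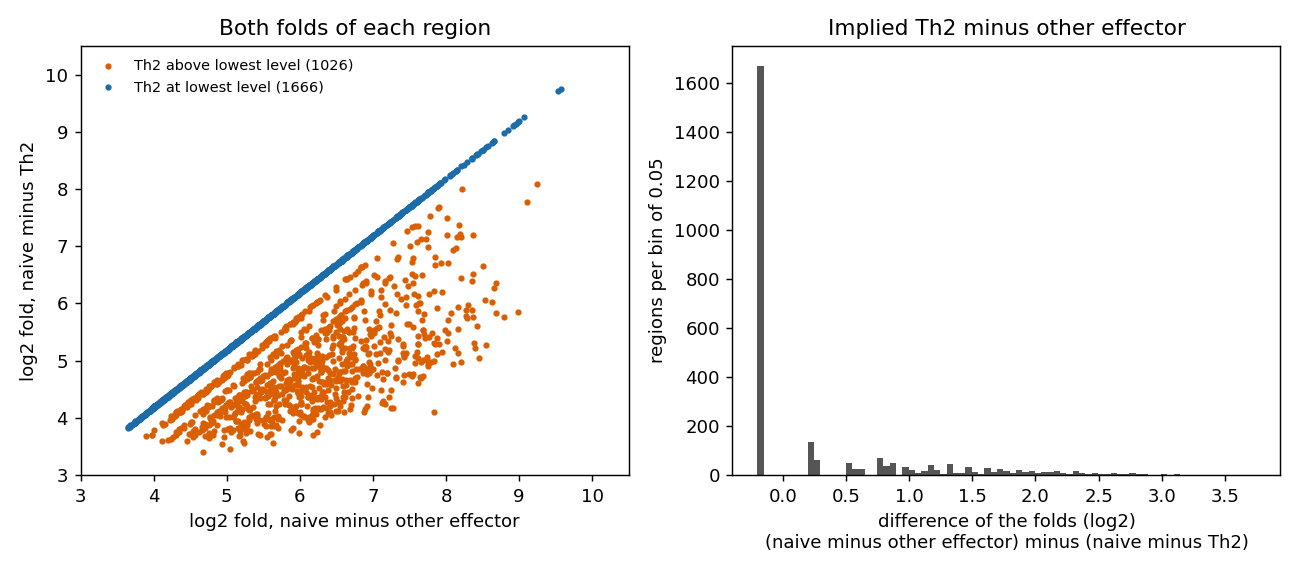
Left, log2 fold of naive minus other effector cells (x) against naive minus Th2 cells (y) for each of the 2692 regions. Right, number of regions by the difference of these folds in bins of 0.05. The 1666 regions at -0.18 or -0.19 form the straight upper edge on the left and the tall bar on the right, and the other 1026 spread up to 3.72 in steps.

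A most frequent value was also seen in the other differences built from lists with naive cells. Over all 4835 regions with naive cells above both other effector and Th2 cells, 2917 (60.3%) were within 0.01 of -0.18 and none was lower. Treg minus other effector cells was within 0.01 of 0.00 at 1971 of 3025 regions, with none below that range. Treg minus Th2 cells had 0.18 as its most frequent value, in 606 of 2801 regions within 0.01, but 1197 regions were lower. Naive minus other effector cells, from the lists against Th2 cells, was within 0.01 of -0.17 at 3189 of 3896 regions (81.9%), with 178 lower. From the lists against Treg cells it was so at 2411 of 2761 (87.3%), with 119 lower. A frequent fixed value was thus not particular to Th2 cells. Folds added up with no residual at the 4 regions that are listed in all 3 comparisons of a triple of populations, but 0 such regions join naive, other effector and Th2 cells. The sources used here do not say what sets the lowest value, and its origin was not tested. The difference was looked at after the folds had been seen.

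At the 1666 regions Th2 cells thus stood at their lowest value relative to other effector cells, which is what lowest value means below. There the 2 folds differ by a constant and order the regions alike. Folds over Th2 cells ranged from 3.83 to 9.75 with a median of 5.17 at these, in the authors' deposited table. At the 1026 other regions Th2 cells stood above their lowest value, by 1.26 at the median. The median fold over other effector cells was 5.99 there and 4.99 at the 1666, and that over Th2 cells 4.74 and 5.17, in the authors' deposited tables. The groups were split by the difference of these same folds, which favours this direction, so the medians are a description alone. The difference exceeded 1 at 541 regions, 2 at 168 and 3 at 12, among them regions at Tgfbr3 (3.72), Cnn3 (3.28) and Gramd3 (3.14). The smallest fold in the other effector versus Th2 list is 3.46 in the authors' deposited table, so the difference of 3.72 at Tgfbr3 exceeds it and was not listed.

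Treg cells have no value at any of these regions, and calling them intermediate would go beyond the lists. The smallest folds listed are 3.79 for naive versus Treg, 3.95 for Treg versus Th2 and 3.48 for other effector versus Treg cells in the authors' deposited tables. At 71 regions the fold over Th2 cells was at least 7.90, which is 3.95 added to itself. If folds add up, Treg cells differed from naive or from Th2 cells by at least 3.95 at each of the 71, and no such difference was listed. Missing from a list is thus no sign of a small difference. Of the 4835 regions with naive cells above other effector and Th2 cells, 1418 (29.3%) had naive cells above Treg cells too. A further 389 (8.05%) were also listed for other effector versus Treg cells, and 327 (6.76%) for that and for Treg versus Th2 cells. The fold over other effector cells had a median of 6.14 in the 1418, 6.79 in the 389 and 6.88 in the 327, against 5.44 in the regions without a Treg listing, in the authors' deposited tables.

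Regions with a Treg listing lay near some of these. A region of any list with Treg cells stood within 1 kb of 364 regions (13.5%, 12.3% to 14.9%) and within 100 bp of 49 (1.82%). The shares were 12.3% (11.6% to 13.2%) and 1.96% of the 6472 regions where naive cells were higher than other effector cells only. The closest were at Spata3, Kif23, Alg14 and Il23r, with gaps of 1, 3, 7 and 13 bp, and on chromosome 6 with no end of a protein-coding gene within 100 kb (9 bp). These are the regions nearest to the limit set by an overlap of 1 bp. A region higher in naive than in Treg cells lay within 1 kb of 131 (4.87%, 4.08% to 5.75%), against 2.86% (2.47% to 3.29%) of the 6472. A region higher in Th2 than in naive cells lay within 1 kb of 6 (0.223%, 0.0818% to 0.484%), against 0.695% (0.508% to 0.929%) of the 6472. The lists behind these neighbours differ in size, with 30982 merged regions in any list with Treg cells, 3025 higher in naive than in Treg and 5079 higher in Th2 than in naive cells, so shares compare only for 1 kind of neighbour. These differences were not tested.

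The regions were mostly far from gene ends. Of them, 141 (5.24%, 4.43% to 6.15%) had their midpoint within 1 kb of an end of a protein-coding gene of RefSeq GRCm38.p6, against 21.9% (21.5% to 22.3%) of all merged regions. The share was 8.56% (7.89% to 9.27%) where naive cells were higher than other effector cells only, 6.26% (5.02% to 7.71%) where they were higher than other effector and Treg cells, and 3.88% (2.94% to 5.02%) where they were higher than all 3. Position was not used by the rule, but regions are not independent and these shares were not tested against each other. A midpoint inside a gene was about as frequent in all of these classes, 59.8% here and 58.0% to 60.2% elsewhere. Outside any gene and with no gene end within 100 kb lay 224 regions (8.32%), against 5.12% of all merged regions. Regions deep inside long genes are not in this count.

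**Figure D2:**
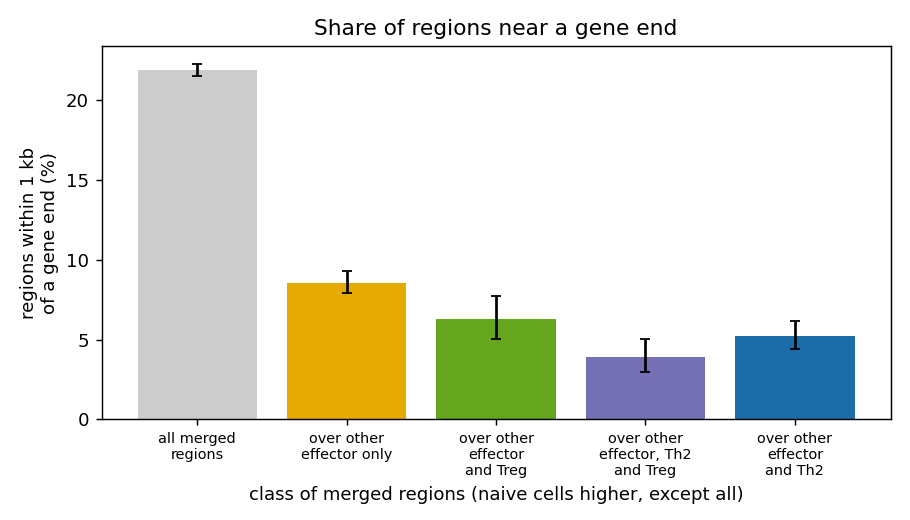
Percentage of merged regions with the midpoint within 1 kb of a gene end (y) for all 52537 merged regions and for 4 classes in which naive cells were higher (x); bars show the share and error bars the exact 95% binomial interval. The regions over other effector and Th2 cells stand at 5.24%, between those over all 3 populations (3.88%) and those over other effector cells only (8.56%).

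Region width moved with both folds. Widths ran from 150 to 1873 bp with a median of 519 bp, against 497 bp for all merged regions. From the narrowest of 4 groups (150 to 365 bp) to the widest (715 to 1873 bp) the median fold over other effector cells went from 4.69 to 6.40 and that over Th2 cells from 4.55 to 5.62, in the authors' deposited tables. Th2 cells were at their lowest value at 71.3% of the narrowest and 54.2% of the widest group. The part of width, and of the read number that may go with it, in these values was not tested.

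**Figure D3:**
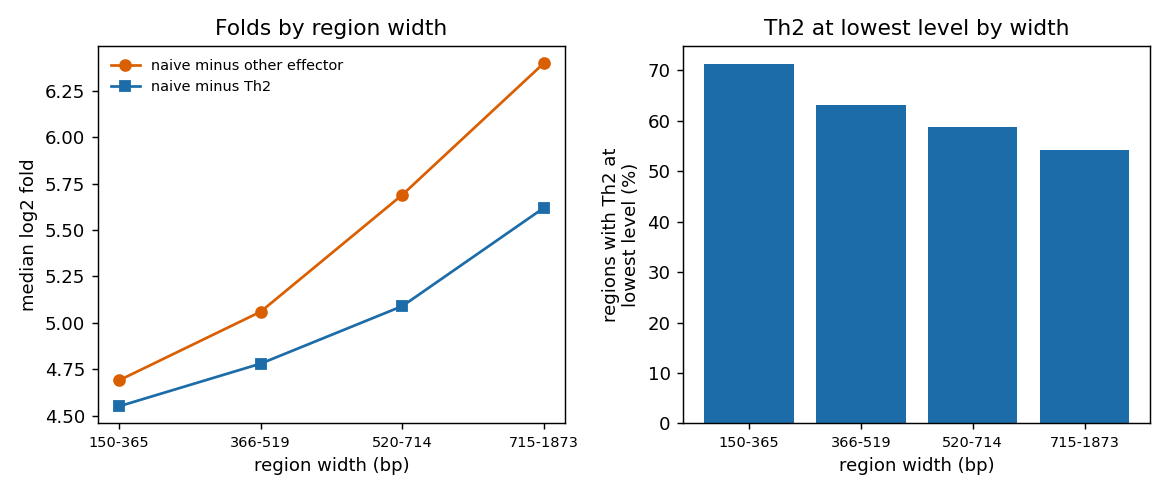
Left, median log2 fold over other effector cells and over Th2 cells (y) in 4 groups of regions of equal rank by width (x). Right, percentage of regions at which Th2 cells had their lowest value in the same groups. Medians climb from 4.69 to 6.40 and from 4.55 to 5.62, while the percentage goes from 71.3% to 54.2%.

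Every autosome and chromosome X held some of the regions, from 4.12% of the merged regions of chromosome 13 to 6.48% of those of chromosome 3, and the unplaced sequences and chromosome Y held none. The regions were assigned to the gene around the midpoint or, failing that, to the closest gene end within 100 kb. This placed 2468 of them at 1749 genes, 12.6% of the 13906 genes with any merged region. Most of these genes, 1316, had 1 region, 292 had 2 and 141 had 3 or more. The 26 genes with at least 5 held 189 regions (7.02%).

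Satb1, a chromatin organizer needed for naive T cell identity, had the most under this assignment, 16 of its 31 merged regions. The rank did not hold with assignment within 10 kb, which left Satb1 8 regions, Foxp1 14, Tgfbr3 11 and Bach2 and Lef1 9 each, nor with only the naive lists merged, which gave Foxp1 23 and Satb1 17. In 1 window of 100 kb it held 13 of them, more than any other such window. Of the 16, 6 lay inside the gene (chromosome 17, 51736187 to 51833290), 1 just below its lower end and 9 above its upper end, out to 163 kb from the lower end. The fold over Th2 cells ranged from 4.28 to 7.92 and that over other effector cells from 5.17 to 7.74 in the authors' deposited tables. The highest over both populations, 51876324 to 51876844, carried 7.74 and 7.92, followed by 51735175 to 51736219 with 7.61 and 7.35, in the authors' deposited tables. Th2 cells were at their lowest value at 4 of the 16, compared with 1666 of 2692 in all. No merged region of Satb1 was higher in Th2 than in naive cells, 2 were higher in naive than in Treg cells and 3 had Treg above other effector cells.

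Bcl11b, a factor of T lineage commitment, had 7 of 29 merged regions in this class. None of the 29 was higher in naive than in Treg cells, and 17 had Treg above other effector cells. Its folds over Th2 cells ran from 4.37 to 5.81 in the authors' deposited table, with Th2 cells at the lowest value at 2 of the 7. The region at chromosome 12, 107918781 to 107919096, inside the gene, had folds of 7.70 over other effector and 5.81 over Th2 cells in the authors' deposited tables.

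Tgfbr3, which encodes betaglycan, a co-receptor for TGF-beta, differed from these. It had 14 regions of the class and 10 higher in naive than in all 3 other populations among its 28 merged regions, and 0 with Treg above other effector cells. The 14 spread over 211 kb around chromosome 5, 107106567 to 107289629. Their folds over Th2 cells ran from 4.11 to 8.03 in the authors' deposited table. The region at 107201467 to 107202326, inside the gene, had folds of 7.85 and 8.03, whereas that at 107222971 to 107223808 had 7.83 over other effector but 4.11 over Th2 cells, in the authors' deposited tables. Within this gene, regions of nearly equal fold over other effector cells thus differed in their fold over Th2 cells.

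Foxp1, a forkhead factor that keeps naive T cells quiescent, had 14 regions, all inside the gene (chromosome 6, 98925342 to 99522746), with folds over Th2 cells from 3.73 to 8.15 in the authors' deposited table. They were a smaller part of its listings, 16.3% of 86 merged regions, of which 33 had Treg and 28 had Th2 above other effector cells. Bach2, a repressor of effector genes, had 11 of 67, with Th2 cells at the lowest value at 8. Its highest, at chromosome 4, 32166043 to 32166620, lay 72081 bp before the lower end of the gene and carried folds of 7.35 and 7.53 in the authors' deposited tables. Inside the gene, 32388314 to 32389009 followed at 7.10 and 7.29 in the authors' deposited tables.

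Lef1, the partner of TCF1 at Wnt-responsive and T cell enhancers, had 9 regions, all inside the gene (chromosome 3, 131110297 to 131224357). Their folds over other effector and Th2 cells show both kinds of region side by side. The region 131199610 to 131200565 held 7.99 and 8.18, and 131153876 to 131154237 held 6.77 and 6.95, in the authors' deposited tables, with Th2 cells at the lowest value. The region 131190489 to 131191275 held 7.68 and 4.73, and 131144029 to 131144634 held 6.18 and 3.71, in the authors' deposited tables. Th2 cells stood above the lowest value at 4 of the 9. Another 8 regions of Lef1 were higher in naive than in all 3 other populations.

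**Figure D4:**
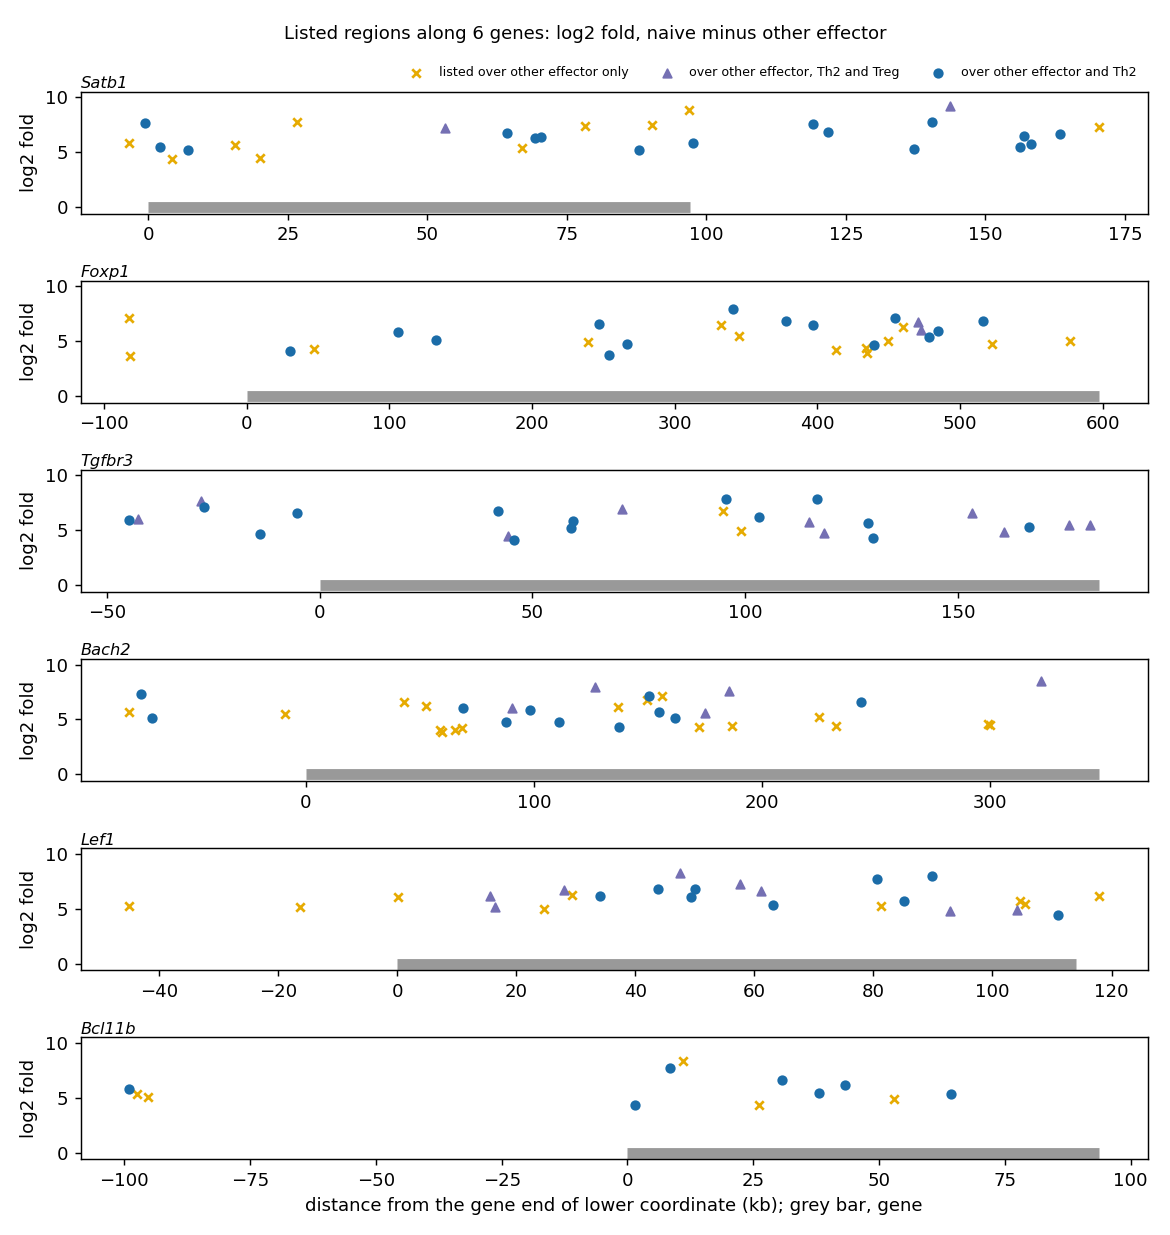
Position of listed regions relative to the lower-coordinate gene end (x, kb; the grey bar is the gene) and their log2 fold of naive minus other effector cells (y) at Satb1, Foxp1, Tgfbr3, Bach2, Lef1 and Bcl11b. Circles are regions over other effector and Th2 cells, triangles those over all 3 populations and crosses those over other effector cells only. Satb1 shows 9 circles beyond its upper end, and Tgfbr3 and Lef1 show 10 and 8 triangles among their 14 and 9 circles.

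Most other factors and receptors of naive cells had a few regions each. Of 22 genes listed for naive identity and quiescence, 18 had at least 1 (81.8%, against 12.6% of all genes with a merged region). The 22 genes hold 526 merged regions, and a gene with more merged regions has more places for 1 of the class. Together they had 96 of the 526 (18.3%, against 5.12% of all merged regions). The median folds of these 96 were 5.95 over other effector and 5.15 over Th2 cells in the authors' deposited tables. The list holds genes already known to be high in naive cells here, so its direction is no independent evidence. Ccr7, the lymph node homing receptor, had 1 region, outside the gene at chromosome 11, 99170611 to 99171427, and carried 9.0 and 9.19 in the authors' deposited tables, 121 bp from a region with a Treg listing. S1pr1, the receptor for exit from lymph nodes, had 2, of which the farther from the gene had 7.41 and 4.62 in the authors' deposited tables. Klf2, which drives S1pr1, had 1 at 5.84 and 6.02, and Klf3 had 1 at 5.46 and 4.86, in the authors' deposited tables.

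Tcf7 had 2 of its 15 merged regions in the class, at 5.79 and 5.97 and at 5.97 and 5.20 over other effector and Th2 cells in the authors' deposited tables, while 4 of its regions were higher in naive than in all 3 populations and 4 higher than in other effector and Treg cells. Ikzf1, the lymphoid factor Ikaros, had 5 regions, all inside the gene, and Foxo1, which sustains Ccr7 and Il7r, had 4, as did Ets1. Th2 cells were above their lowest value at all 4 of Ets1, whose folds over Th2 cells ran from 4.87 to 7.36 in the authors' deposited table. Il6st, Txk and Btg1 had 3 each and Bcl2 2, whereas Id3, Il7r, Slfn2 and Tob1 had none.

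Of 13 genes for TCF/LEF and its partners 8 had a region, against 12.6% of all genes with a merged region. In all they had 18 of 153 merged regions (11.8%, against 5.12% of all merged regions). Of these 18, the 9 at Lef1 and the 2 at Tcf7 are counted in the naive list too. Tle4, a co-repressor that TCF and LEF factors recruit, had 2, of which that at chromosome 19, 14695268 to 14695976, outside the gene, had folds of 9.07 and 9.25 in the authors' deposited tables. Axin2, Tle1, Tle3, Tcf7l1 and Tcf7l2 had 1 each, and Apc, Ctnnb1, Gsk3b, Lrp5 and Lrp6 none. Of 11 genes of TGF-beta signalling, 4 held 21 of 141 merged regions (14.9%, against 5.12% of all merged regions). These were Tgfbr3 with the 14 above, the receptor Tgfbr2 and the inhibitor Smad7 with 3 each, and Skil with 1. The share rests mostly on Tgfbr3, with 14 of its 28 merged regions, against 3 of 35 at Tgfbr2, 3 of 10 at Smad7 and 1 of 9 at Skil. The other genes of the list had none. Tgfbr3 is counted in the naive list too, so the shares of these lists are not separate results.

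Genes of T cell receptor signalling carried 34 regions, 11.2% of the list's 304 merged regions, against 5.12% of all merged regions. They lay at 14 of 25 genes (56.0%), against 12.6% of all genes with a merged region. Shares of genes also depend on how many merged regions each gene holds. Prkcq, the kinase PKC-theta, had 6, led by 11203954 to 11204624 of chromosome 2, inside the gene, which carried 8.29 and 8.48 in the authors' deposited tables. Cblb, a ubiquitin ligase that restrains T cell activation, had 5, and Cd3e and Fyn had 3 each. Cytokine receptor and STAT genes had 16 of 211 merged regions (7.58%), at 10 of 24 genes, with 3 each at Jak1, Il12rb2 and Il6st. The strongest over other effector cells was inside Jak1, at 8.42 but 5.60 over Th2 cells in the authors' deposited tables. ETS, RUNX and E protein genes had 17 of 247 (6.88%), at 9 of 17 genes, among them 4 at Ets1 and 3 at Myb. Homing and adhesion genes had 12 of 217 (5.53%), at 8 of 20, with 2 each at S1pr1, Itga6, Rhoh and Dock2. The last 2 shares lie near the 5.12% of all merged regions.

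Genes of the effector programs differed from list to list, beside 5.12% of all merged regions and 12.6% of all genes with a merged region. Of 20 Th2 genes none had a region, although the list holds 159 merged regions. Activation and tissue genes had 5 of 260 merged regions (1.92%) at 5 of 20 genes (25.0%), 1 each at Cd44, Nr4a3, Nfatc1, Myc and Nfkb1. Treg genes had 7 of 223 (3.14%) at 5 of the 19 genes with merged regions (26.3%): 2 each at Ctla4 and Prdm1 and 1 each at Foxp3, Icos and Capg. The Foxp3 region, inside the gene at chromosome X, 7587599 to 7587818, had folds of 4.57 and 4.76 in the authors' deposited tables. Treg cells were above other effector cells at 5 of the 6 merged regions of Foxp3, 17 of 19 of Ctla4, 14 of 16 of Icos, 9 of 18 of Prdm1 and 3 of 5 of Capg. Th1, Th17 and follicular helper genes had 9 of 161 (5.59%) at 7 of 20 genes (35.0%), 2 each at Eomes and Sh2d1a. The single region at Cxcr5, the follicular homing receptor, had folds of 8.96 and 9.14 in the authors' deposited tables. None of the 31 merged regions of 10 housekeeping genes was among them. Since every merged region carries some listing, a gene list rich in another direction is poor in this one, and these shares are not separate evidence.

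Markers of other cell types were also counted. B cell genes had 6 of 47 merged regions (12.8%, against 5.12% of all) at 4 of 12 genes (Ebf1 3, and Bcl11a, Blk and Pax5 1 each), with folds over other effector cells of 3.96 to 6.32 in the authors' deposited table, while Ms4a1, Cd79a and Cd79b had none. CD8 and natural killer cell genes had 5 of 33 (15.2%) at 3 of 10 genes, Prf1 3 and Cd8b1 and Gzmb 1 each, and Cd8a had none. Myeloid genes had 1 of 58 (1.72%), at Itgam (3.94 and 4.12), and epithelial and stromal genes 1 of 37 (2.70%), near Cdh5 (4.13 and 4.32), in the authors' deposited tables. Genes of all T cells had 12 of 72 (16.7%), 4 near Thy1, 3 near Cd3e, 2 each at Cd5 and Cd28 and 1 at Lck. The part of other cells in these regions was not tested.

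Outside the lists, Cox10, needed for heme A of cytochrome c oxidase, had 10 regions and Arid1b, a subunit of BAF chromatin remodelling complexes, 8. Ubac2 had 7, and Nfia, Ttc28, Trio, Chl1, Map7, St8sia1 and Pard3 had 6 each. Map7, which binds microtubules, had the class at 6 of its 10 merged regions, Sae1, a subunit of the SUMO-activating enzyme, at 5 of 9, and Chl1, a cell adhesion gene of neurons, at 6 of 14. Th2 cells were at their lowest value at all 5 regions of Sae1 and Tbc1d22a and at all 6 of Chl1 and Nfia. They were so at 1 of 6 regions of Trio and of Pard3, and at 61.9% of all 2692 regions. Ccnd3, which encodes cyclin D3, Arl4c, Alg14 and Vps37b had 5 each, as did Nsg2. A region with Th2 above naive cells was also present at 470 of the 1749 genes (26.9%). No such share was counted for all 13906 genes with any merged region, so 26.9% cannot be called high or low. Genes that hold many merged regions also have more places for a region of this kind.

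**Figure D5:**
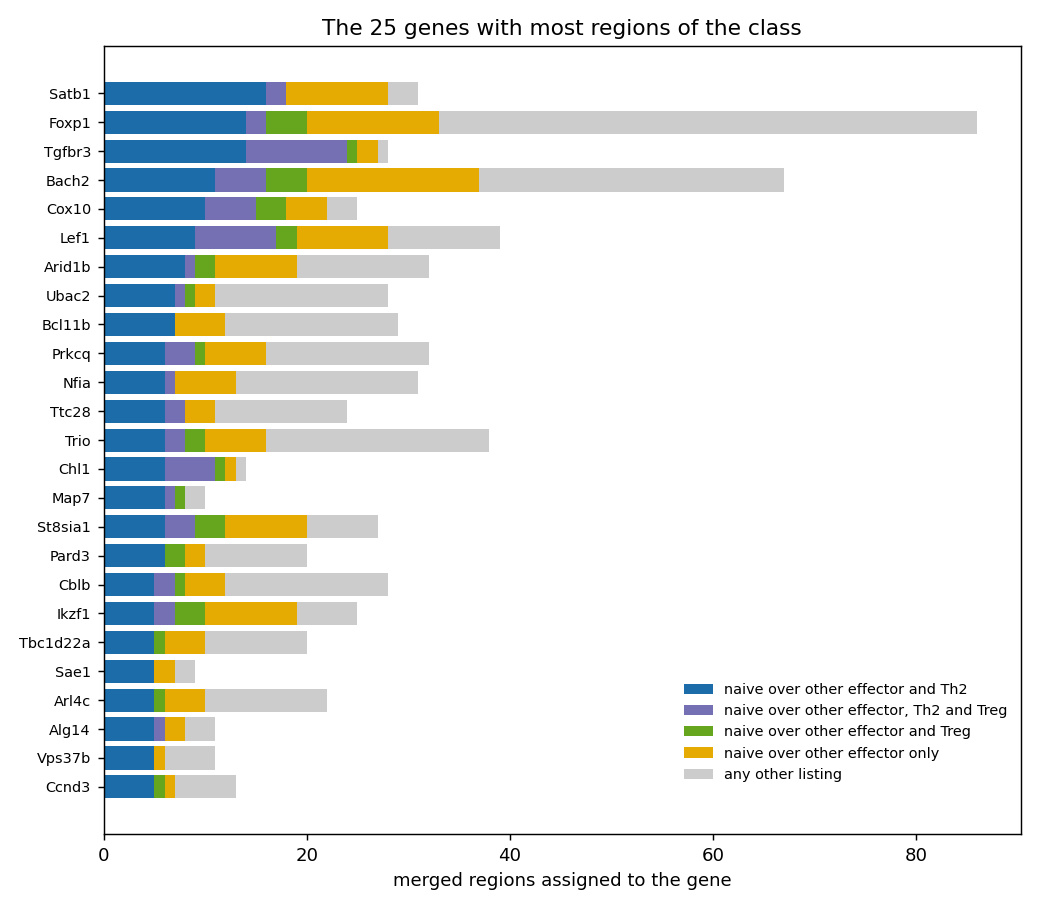
Number of merged regions (x) assigned to each of the 25 genes with most regions of the class (y), split by the comparisons in which they were listed. Satb1 has 16 of 31 in the class, Foxp1 14 of 86 and Map7 6 of 10.

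Among the 10 highest single regions over Th2 cells, those after Rasgrp2 included regions near Lrrc74a (9.71), Tle4 (9.25), Ccr7 (9.19), in Rnf43 (9.17), near Cxcr5 (9.14), near Ndc80 (9.10) and Chrna9 (9.03) and in Fbln1 (8.98), in the authors' deposited table. At all 10 Th2 cells had their lowest value. The choice by fold over Th2 cells favours this, and 61.9% of all 2692 regions had it. Rnf43 encodes a ligase that removes Wnt receptors from the cell surface and Ndc80 a kinetochore protein. Over other effector cells the 10 highest also took in Tbcel (9.25), a region of chromosome 3 at 52647293 to 52648617 (9.11), and Gramd3 (8.99), in the authors' deposited table. Over Th2 cells these 3 stood at 8.08, 7.78 and 5.85 in the authors' deposited table, with Th2 cells above their lowest value. The chromosome 3 region had no end of a protein-coding gene within 100 kb, but a RefSeq transcription start lay 1934 bp away.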

How the data were processed

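The 6 lists of differential regions were deposited for 4 populations and hold a position and a fold. They were made with DiffBind per the submitters' processing notes, without a version. The deposited fold is taken as a log2 value, as DiffBind writes folds, and as first-named minus second-named population. With this sign Tcf7, Lef1 and Ccr7 had 6, 19 and 7 regions higher in naive and Il4, Il5, Il13 and Pparg 1, 2, 5 and 8 higher in Th2 cells, none of them the other way, and Bach2 had 18 and 1. The aligner, peak caller, normalization, threshold and any filter by direction are steps not given in the sources used here. All rows of the 3 lists with other effector cells have that population lower.

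The notes name build mm9, but all 11 unplaced sequences carry accessions of GRCm38 type, and 21.0% of merged regions lay within 1 kb of a start of the GRCm38.p6 table, against 3.01% to 4.01% after shifts of 10 to 1000 kb. Coordinates are therefore given as GRCm38, 1-based. Merging, gene assignment (shortest gene if several hold the midpoint) and counts were run with pandas 2.3.3 and scipy 1.17.1, and tested on simulated data. No p-value is given, since the folds chose the regions and hold no replicate. The gene table gives no strand, exons or UTRs.

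The regions, gene lists and rules were chosen with earlier results of these data known. Named are the 25 genes with most regions, the 10 highest regions in each list, the 5 lowest over Th2 cells, all genes of the naive and TCF/LEF lists with a region and up to 4 of each other list. Nsg2, which ties with the last of the 25, the regions past a difference of 3 and the marker genes with no region were named after their values were seen. Values of some genes are not reported here. Of the 10 genes of all T cells, 9 matched the gene table. Alternatives changed the merging, the gene assignment and the windows.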

Additional observations from a re-analysis of the deposited data

How the results depend on the processing

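No paired analysis was possible because the lists hold no replicate values. Joining rows across gaps of up to 100 bp left 2629 regions. Asking for a larger overlap (0.5 of the shorter row) or leaving out unplaced sequences left 2692. These settings could not remove a region, since all 2692 hold rows at identical coordinates and none lies on an unplaced sequence. Merging only the lists with naive cells gave 3413, with median folds of 5.72 over other effector and 5.15 over Th2 cells. The share within 1 kb of a gene end, 5.24%, became 9.29% within 2 kb and 3.16% within 500 bp, and the share within 1 kb of a region with a Treg listing became 36.3% within 5 kb. Th2 cells were at their lowest value at 60.9% to 62.4% of regions under the 4 settings tried, which were chosen after seeing the data. Gene counts depended on assignment. With every gene within 100 kb counted, cytokine receptor and STAT genes with a region were 17, Th2 genes 3, Treg genes 12, activation genes 8, CD8 and natural killer genes 5, myeloid genes 2, epithelial and stromal genes 4, housekeeping genes 3 and genes of all T cells 8. With assignment within 10 kb, activation genes were 2, epithelial and stromal genes 0 and genes of all T cells 3, and Satb1 kept 8 of 16 regions, Chl1 3 of 6, Arl4c 1 of 5 and Alg14 3 of 5. Foxp1 had 23 when only the lists with naive cells were merged. Of 100 values for the 25 genes with most regions, 95 stayed within 1.5 times. These include 25 from the larger overlap, which could not lower them. Depth is unknown, so regions with little signal in every population may be missing.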
